A study of Sus scrofa with 9 samples.

Results

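The transcripts described here encode membrane transporters and ion channels of granulosa cells from the pig ovary. They were the 46 of 1081 rows of the deposited table whose symbol begins like a transporter or channel family (39 rows: SLC, ABC, KCN, CACN, SCN, TRP, CLCN, AQP, ATP1, ATP2 or ATP8) or whose description alone contains the word transporter, exchanger or channel (7 rows). SLC7A11, SLC7A5, SLC2A1, SLC2A3, SLC16A3, ITPR2 and RRAD were set aside by name. Carriers of cystine, large neutral amino acids, glucose and lactate are among those set aside, but other carriers of some of these substrates were kept. RNA was sequenced from 9 libraries of wild-type primary granulosa cells, 3 each from control cells, cells given sulforaphane (an isothiocyanate of cruciferous plants that activates the transcription factor NRF2) and cells given follicle-stimulating hormone (FSH, which acts through cyclic AMP). Dose, duration and the vehicle of the controls are not stated in the labels, nor is whether the 3 libraries of a group are separate cultures or animals. The p-values therefore weigh differences against the spread between these libraries, which may be technical.

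Solute carriers move amino acids, sugars, organic acids, ions, metals and nucleotides down or against their gradients, ABC transporters spend ATP to export lipids and drugs, and ion channels set membrane potential and calcium entry. In the follicle these proteins feed the oocyte and the granulosa cell layer, shape the ion and water content of follicular fluid, and take part in the electrical and calcium responses to gonadotropins. The rule also takes in products that themselves carry nothing across a membrane. By symbol these include TRPS1, a GATA-type transcriptional repressor, and SLC2A4RG, a DNA-binding regulator of a glucose transporter gene. By description they include KCTD11, an adaptor of a ubiquitin ligase.

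Levels are given as FPKM (fragments per kilobase of transcript, scaled to library depth). Depth, worked out from counts set against FPKM, lay between 16576752 and 22295819 fragments, and the table held 6.72% to 8.38% of it. The table holds almost only rows that differ from control. Of 919 rows with at least 1 FPKM in at least 3 libraries, 99.6% passed in sulforaphane against control and 97.9% in FSH against control (edgeR quasi-likelihood test, Benjamini-Hochberg at 0.05). Passing against control is therefore no result about a transcript of this table. What follows rests on directions, sizes and the direct comparison of both treatments, where 55.7% of rows passed. Sizes against control were bounded from below too. Leaving aside the smallest 1%, the 919 changes were at least 0.386 with sulforaphane and 0.37 with FSH (log2, either direction). Between treatments the same bound was 0.00573. Adjusted p-values against control are printed only for the weakest call of each treatment among the 41 tested transcripts. Of the listed granulosa cell markers 6 of 15 were in the table, including the inhibin subunit INHBA and the receptor AMHR2, and 0 of these were at 0 in any library. The sulforaphane libraries differed among themselves. Replicate 3 lay nearest to the control mean for 22 of 41 tested transcripts, against 11 for replicate 1 and 8 for replicate 2. Replicate 2 lay farthest from it for 25, against 7 for replicate 1 and 9 for replicate 3. The median coefficient of variation of these transcripts was 14.3% with sulforaphane, 6.7% in controls and 7.07% with FSH.

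All 46 transcripts were matched by gene identifier and symbol to the Sscrofa11.1 annotation. CLIC1, a small protein that exists in soluble and membrane-inserted forms, was highest in controls at 589 ± 29.9 FPKM (SD, n = 3), followed by SLC40A1, the iron exporter ferroportin, at 264 ± 15.7 FPKM. Together they gave 68.5% to 78.4% of the summed FPKM of the 46 transcripts in each library. In controls 11 transcripts had a mean of at least 10 FPKM, 24 lay between 1 and 10 FPKM, and 11 lay under 1 FPKM. The median transcript stood at 2.5 FPKM in controls, 2.99 FPKM with sulforaphane and 3.22 FPKM with FSH. The filter on low values left 41 transcripts for the test. SLC1A6, KCNE4, KCNIP4, KCNJ5 and KCNS1 did not pass it. They are called not tested here, since they entered only an alternative fit with no filter. SPNS2 and KCNA5 passed the filter only through the controls, and SLC46A3 only through FSH, so a difference from those groups was built into their selection. SLCO4A1, ABCB1, KCNA3, TRPS1 and ASIC1 were under 1 FPKM in every control library and passed through treated libraries alone. A rise against control was therefore built into their selection too. SLC6A4 passed with every sulforaphane library under 1 FPKM, which favoured a lower level there.

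**Figure D1:**
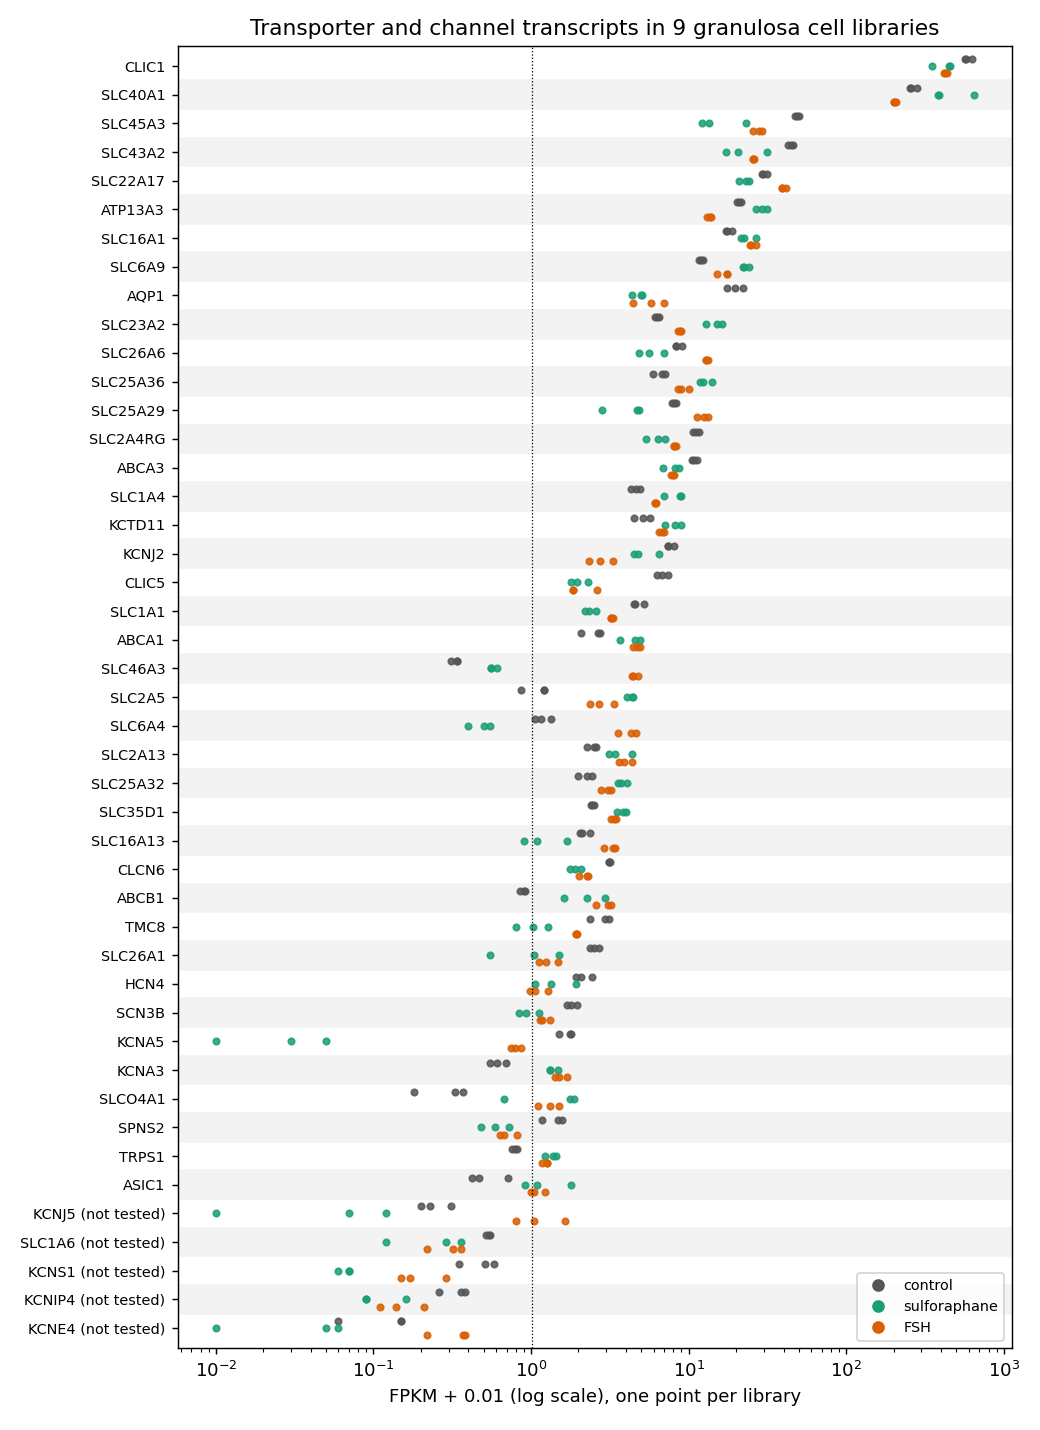
FPKM of the transporter and channel transcripts reported here (log axis, 0.01 added so that a listed 0 can be drawn), with 1 point per library and the 3 groups in colours. The dotted line marks 1 FPKM. CLIC1 and SLC40A1 lie above all other transcripts, KCNA5, KCNJ5 and KCNE4 each have 1 sulforaphane library listed at 0, and the 5 transcripts at the bottom were not tested.

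With sulforaphane 19 of the 41 tested transcripts rose and 22 fell against control, shares of 46.3% and 53.7%, beside 34.3% higher and 65.3% lower among all 919 rows. With FSH 22 rose and 19 fell, shares of 53.7% and 46.3%, beside 55.3% and 42.7% of all rows. A change of at least 2-fold was seen in 17 of 41 with sulforaphane (34.3% of all rows) and in 12 of 41 with FSH (23.3% of all rows). The median log2 fold change was -0.46 with sulforaphane (all rows -0.56) and 0.37 with FSH (all rows 0.41). These comparisons share their control libraries. Both treatments raised 17 transcripts and lowered 17, sulforaphane lowered and FSH raised 5, and sulforaphane raised and FSH lowered 2. In all tested rows the same patterns made up 29.8%, 38.6%, 25.2% and 3.92%.

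The number of falls with sulforaphane changed with how libraries were scaled. Over all 919 rows the middle log2 fold change was -0.56 by depth, -0.20 by median-ratio factors and -0.09 by TMM factors. Under the last of these 19 of the 41 transcripts were still higher and 14 were lower (34.5% and 32.2% of all rows). The 8 whose fall was lost with TMM factors were ABCA3, CLCN6, CLIC1, HCN4, KCNJ2, SLC16A13, SLC22A17 and SLC26A6, and ABCA3, KCNJ2 and SLC22A17 moved to 0.01, 0.00 and 0.07 on the log2 scale. With median-ratio factors 6 of these 8 calls were lost and 0 changed sign. CLCN6 (-0.36) and SLC16A13 (-0.50) kept theirs. The falls of the other 6 were called relative to library depth alone. Both sets of factors were worked out from these 919 rows, 99.6% of which passed with sulforaphane against control. Such factors take most rows as unchanged, so a call lost under them cannot decide whether a level fell.

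**Figure D2:**
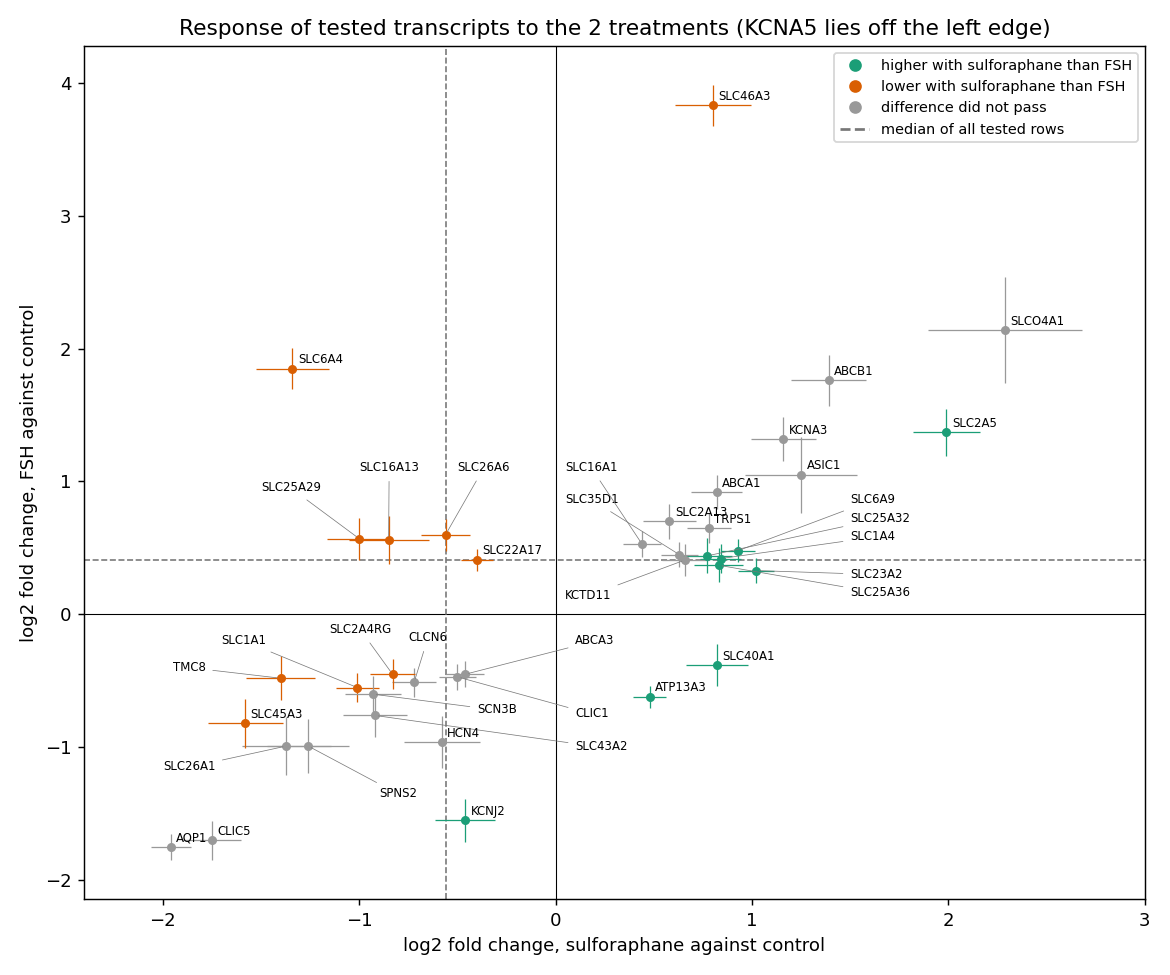
Log2 fold change of the tested transcripts reported here with sulforaphane (horizontal) and with FSH (vertical), both against the same 3 control libraries, with bars for 1 standard error and colours for the direct test between treatments. Dashed lines mark the medians of all 919 rows (-0.56 and 0.41). SLC46A3 stands highest on the FSH axis (3.83, against 0.80 with sulforaphane), SLC6A4 lies left of 0 and at 1.85 on the FSH axis, SLC40A1 and ATP13A3 lie right of and below 0, and KCNA5 (-6.3 and -1.07) is not drawn. The filter on low values took SLC46A3 only through FSH and KCNA5 only through controls. ABCA3, KCNJ2 and SLC22A17 lose their negative sign on the horizontal axis with TMM factors.

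Among the amino acid and neurotransmitter carriers, the glycine transporter SLC6A9 and the neutral amino acid carrier SLC1A4 rose with both treatments, and the rise was larger with sulforaphane. SLC6A9 was measured at 12.38, 11.90 and 11.69 FPKM in controls, 22.04, 24.17 and 22.60 with sulforaphane, and 17.40, 17.42 and 15.20 with FSH. The 3 groups did not overlap, and the log2 fold changes were 0.93 ± 0.0876 (SE) and 0.48 ± 0.0876, with 0.45 ± 0.0865 between treatments (adjusted p = 0.000491). SLC1A4 stood at 4.65, 4.27 and 4.88 FPKM in controls, 8.74, 8.93 and 7.01 with sulforaphane, and 6.15, 6.21 and 6.07 with FSH. Its treated groups were separate as well, with a difference of 0.42 ± 0.104 (log2, adjusted p = 0.00349).

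SLC1A1, which imports glutamate and cysteine, and SLC43A2, a facilitative carrier of large neutral amino acids, fell with both. SLC1A1 went from 4.50, 5.18 and 4.55 FPKM to 2.32, 2.56 and 2.18 with sulforaphane and 3.30, 3.22 and 3.22 with FSH. The 3 groups were separate. The log2 difference of sulforaphane from FSH was -0.47 ± 0.111 (adjusted p = 0.00276), a call lost under median-ratio (-0.09) and TMM scaling (-0.16). SLC43A2 was among the more abundant carriers, at 44.5 ± 1.74 FPKM in controls, 23.2 ± 7.44 with sulforaphane and 25.8 ± 0.144 with FSH. Its sulforaphane replicate 3, at 31.53 FPKM, lay above replicates 1 and 2 (20.61 and 17.32), and without that library the log2 fold change against control was -1.2 in place of -0.92. The glutamate carrier SLC1A6 had 0.527 ± 0.0153 FPKM in controls, 0.247 ± 0.123 with sulforaphane and 0.29 ± 0.0721 with FSH and was not tested.

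SLC6A4, the serotonin transporter and target of antidepressant drugs, moved in opposite directions. It was measured at 1.33, 1.05 and 1.15 FPKM in controls, 0.49, 0.54 and 0.39 with sulforaphane, and 4.32, 4.65 and 3.57 with FSH. The groups did not overlap. SLC6A4 fell 2.52-fold with sulforaphane (log2 fold change -1.34 ± 0.187) and rose 3.62-fold with FSH (1.85 ± 0.153). The direct difference was 9.12-fold (adjusted p = 1.02e-08), and its directions and calls held under both other scalings. SLC6A4 lies on chromosome 12 from 46285995 to 46328377 (Sscrofa11.1), where 2 long non-coding RNA genes overlap its span.

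All 7 carriers of sugars, organic acids and organic ions rose with FSH (55.3% of all rows were higher), and 5 of them rose with sulforaphane (34.3% of all rows). SLC2A5, the fructose transporter, was at 1.2, 0.86 and 1.2 FPKM in controls, 4.42, 4.39 and 4.08 with sulforaphane, and 3.37, 2.37 and 2.67 with FSH. Every treated library was above every control, with rises of 3.97-fold and 2.59-fold, and the sulforaphane libraries were above the FSH libraries (log2 difference 0.62 ± 0.155, adjusted p = 0.00383). SLCO4A1, a carrier of organic anions including thyroid hormones, went from 0.32, 0.36 and 0.17 FPKM to 1.77, 1.86 and 0.66 with sulforaphane and 1.49, 1.31 and 1.09 with FSH. It rose 4.91-fold and 4.41-fold, the sulforaphane libraries being spread on either side of the FSH ones. The difference between treatments did not pass, and its 95% interval on the log2 scale was wide, -0.53 to 0.84. Without sulforaphane replicate 3 that difference was 0.49 and passed.

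SLC23A2, the sodium-dependent importer of ascorbate, was measured at 6.15, 6.27 and 6.47 FPKM in controls, 15.13, 16.30 and 12.85 with sulforaphane, and 8.96, 8.49 and 8.82 with FSH. The order control, FSH, sulforaphane had no overlap between neighbours. From counts it rose 2.03-fold with sulforaphane and 1.26-fold with FSH, with a difference of 0.69 ± 0.0913 (log2, adjusted p = 2.17e-05). The ratio of mean FPKM, 2.34, was larger than the fold from counts, since the transcript length implied by count and FPKM was 7128 nucleotides on average in controls and 6169 with sulforaphane. A pseudogene overlaps its span. SLC16A1, the main importer and exporter of lactate and ketone bodies, rose with both, from 17.8 ± 0.785 FPKM to 23.5 ± 2.91 and 25.4 ± 1.29, and SLC2A13, the proton-coupled inositol carrier, from 2.43 ± 0.17 to 3.63 ± 0.656 and 3.95 ± 0.394. The 95% intervals of their differences between treatments ran from -0.30 to 0.13 and from -0.41 to 0.16 on the log2 scale. Under median-ratio scaling both passed as higher with sulforaphane than with FSH (0.30 and 0.25), and SLC2A13 passed as lower (-0.28) without sulforaphane replicate 3.

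SLC22A17, the receptor that takes up lipocalin, and SLC16A13, a monocarboxylate carrier, rose with FSH and were lower with sulforaphane. SLC22A17 stood at 29.53, 29.29 and 31.25 FPKM in controls, 23.14, 20.98 and 24.03 with sulforaphane, and 41.28, 39.20 and 39.30 with FSH. The 3 groups were separate, with log2 fold changes of -0.40 ± 0.0837 and 0.41 ± 0.083 and a direct difference of 1.76-fold (adjusted p = 2.35e-06). The fall with sulforaphane is the one that moved to 0.07 with TMM factors. SLC16A13 was at 2.04, 2.37 and 2.10 FPKM in controls, 1.08, 0.89 and 1.67 with sulforaphane, and 2.90, 3.41 and 3.30 with FSH. Its reads were partly divided between loci and its span overlaps that of SLC16A11, so its level is uncertain. The direct difference between treatments was 2.65-fold (adjusted p = 3.70e-05).

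SLC40A1, the only known exporter of iron from cells, and ATP13A3, a P-type ATPase of endosomes that moves polyamines, were the 2 transcripts that rose with sulforaphane and fell with FSH. SLC40A1 was measured at 255.16, 282.63 and 255.66 FPKM in controls, 380.09, 388.48 and 642.88 with sulforaphane, and 202.23, 206.33 and 199.84 with FSH. All treated libraries lay outside the control range, and sulforaphane replicate 3 was far above the other libraries. The log2 fold change with sulforaphane was 0.82 ± 0.158, and 0.54 without that library. The fall with FSH, -0.38 ± 0.157 (adjusted p = 0.0346), was the weakest of the FSH calls. It was lost with TMM factors (-0.20) and when any 1 control or FSH library was left out. The difference between treatments was 2.30-fold (adjusted p = 2.17e-05). SLC40A1 lies on chromosome 15 from 94140635 to 94161793 (Sscrofa11.1). ATP13A3 stood at 20.82, 21.50 and 20.21 FPKM in controls, 26.55, 31.57 and 29.25 with sulforaphane, and 13.04, 13.85 and 13.59 with FSH. It was separate in all 3 groups, rose 1.39-fold, fell 1.54-fold, and differed 2.15-fold between treatments (adjusted p = 1.81e-07).

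**Figure D3:**
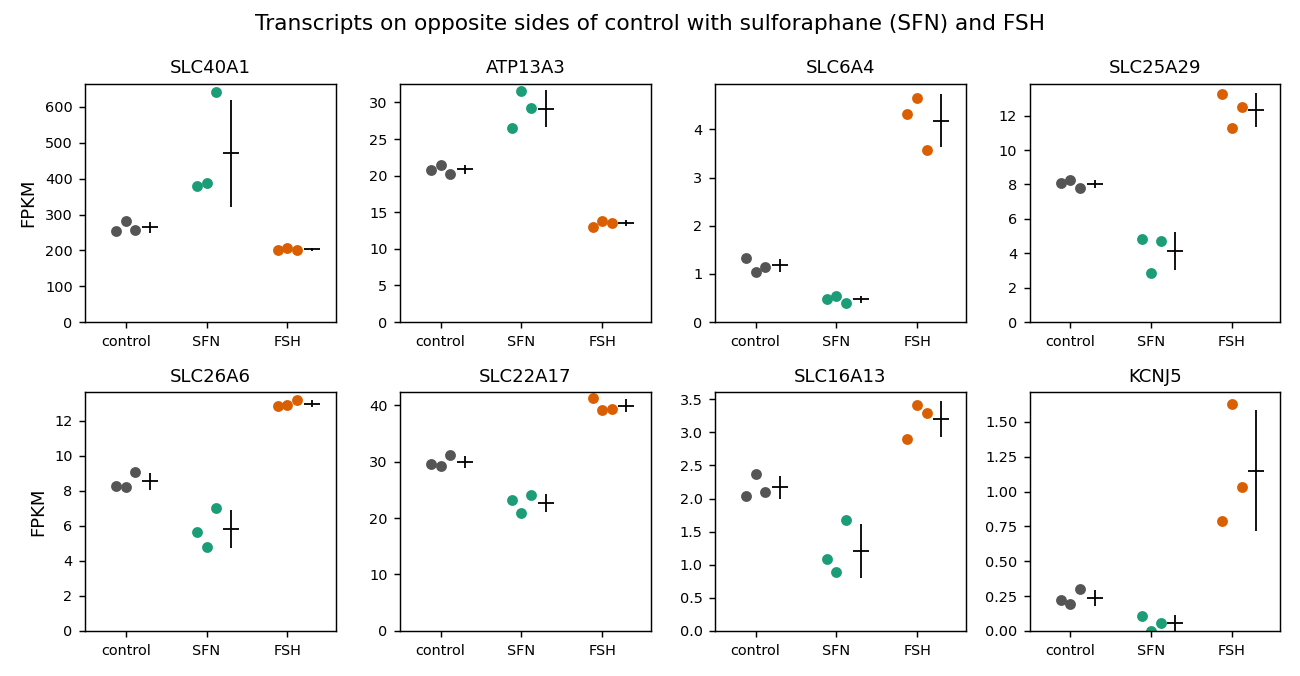
FPKM per library of the 7 tested transcripts that passed in opposite directions against control, and of KCNJ5, which was not tested and was added after its values were seen. SFN stands for sulforaphane, points are libraries in replicate order, and the bar beside them is the mean ± SD of 3 libraries. The treated libraries lie on opposite sides of all 3 controls in every panel. The lower level of SLC22A17 with sulforaphane does not keep its sign with TMM factors.

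Carriers of inner membranes did not move as a block. SLC46A3, a lysosomal membrane carrier, was at 0.30, 0.33 and 0.33 FPKM in controls, 0.60, 0.55 and 0.55 with sulforaphane, and 4.41, 4.73 and 4.33 with FSH. It had the largest rise with FSH of the 41 transcripts (log2 fold change 3.83 ± 0.155), against 0.80 ± 0.193 with sulforaphane, and the direct difference was 8.14-fold (adjusted p = 3.49e-09). Only the FSH libraries reached 1 FPKM, so a difference from FSH was built into the selection of SLC46A3. SLC46A3 lies on chromosome 11 from 5983198 to 6000728 (Sscrofa11.1). SLC45A3, a carrier also known as prostein, fell from 47.38, 48.84 and 50.25 FPKM to 13.47, 12.21 and 23.27 with sulforaphane and 29.24, 25.73 and 28.11 with FSH. It was below control in all 6 treated libraries, by 2.99-fold and 1.76-fold, and lower with sulforaphane than with FSH (log2 -0.76 ± 0.188, adjusted p = 0.00336). Without sulforaphane replicate 3 the log2 fold change of SLC45A3 against control was -1.93 in place of -1.58.

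Of the carriers of the mitochondrial inner membrane, SLC25A29, which carries basic amino acids, moved in opposite directions, while SLC25A36, for pyrimidine nucleotides, and SLC25A32, for folate and flavin, rose with both. SLC25A29 was at 8.08, 8.26 and 7.81 FPKM in controls, 4.81, 2.83 and 4.71 with sulforaphane, and 13.24, 11.26 and 12.51 with FSH, a separation without overlap. The direct difference was 2.98-fold (adjusted p = 2.73e-06). SLC25A36 rose from 7.12, 5.90 and 6.72 FPKM to 12.30, 11.83 and 13.96 with sulforaphane and 8.50, 10.06 and 8.95 with FSH. It was higher with sulforaphane than with FSH by 0.47 ± 0.124 (log2, adjusted p = 0.00563), and its rise with FSH did not pass without control replicate 3 or without FSH replicate 2. SLC25A32 had means of 2.22 ± 0.221, 3.77 ± 0.255 and 3.01 ± 0.213 FPKM. Its difference between treatments (adjusted p = 0.0420) was lost in 7 of 9 fits that left out 1 library. That call was also lost with DESeq2, with the replicate block and with only the groups compared. SLC35D1, which brings nucleotide sugars into the endoplasmic reticulum for chondroitin synthesis, rose from 2.43 ± 0.0586 to 3.77 ± 0.252 and 3.34 ± 0.105 FPKM.

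The anion exchanger SLC26A6 moved in opposite directions and its relative SLC26A1, a sulphate carrier, fell with both. SLC26A6 was measured at 8.26, 8.25 and 9.11 FPKM in controls, 5.63, 4.82 and 7.0 with sulforaphane, and 12.83, 12.93 and 13.21 with FSH. Its treated groups were 2.23-fold apart (adjusted p = 3.46e-06), and its fall with sulforaphane (-0.56) was lost under median-ratio (-0.20) and TMM scaling (-0.09). SLC26A1 stood at 2.51, 2.36 and 2.70 FPKM in controls, 1.49, 1.04 and 0.54 with sulforaphane, and 1.12, 1.48 and 1.24 with FSH. Both treated groups lay below all controls and overlapped each other. Reads of SLC26A1 were partly divided between loci, and its span overlaps that of IDUA. CLCN6, a chloride and proton exchanger of late endosomes, was at 3.13 ± 0.0321 FPKM in controls, 1.90 ± 0.16 with sulforaphane and 2.19 ± 0.15 with FSH. Its span overlaps another gene that is itself a row of the table, so its reads may be shared.

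Of the 3 ABC transporters, ABCA1, which loads cholesterol and phospholipid onto apolipoproteins, and ABCB1, the drug efflux pump P-glycoprotein, rose with both treatments, and ABCA3, a lipid pump of lamellar bodies, fell with both. ABCB1 was at 0.90, 0.89 and 0.84 FPKM in controls, 2.27, 2.92 and 1.62 with sulforaphane, and 3.08, 3.23 and 2.59 with FSH (reads partly divided between loci). Both treated groups lay above control, with rises of 2.62-fold and 3.38-fold, and overlapped each other. ABCA1 went from 2.71, 2.08 and 2.64 FPKM to 4.54, 4.91 and 3.65 with sulforaphane and 4.72, 4.43 and 4.88 with FSH, rises of 1.76-fold and 1.89-fold. ABCA3 stood at 10.9 ± 0.452 FPKM in controls, 7.89 ± 0.946 with sulforaphane and 7.95 ± 0.177 with FSH. For all 3 the difference between treatments did not pass, with 95% intervals of -0.37 to 0.17 for ABCA1, -0.74 to 0.01 for ABCB1 and -0.22 to 0.20 for ABCA3 (log2). ABCA3 turned from -0.01 to passing as higher with sulforaphane under TMM (0.28) and median-ratio scaling (0.36). ABCB1 passed as lower with the replicate block (-0.39) and without sulforaphane replicate 2 (-0.57).

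AQP1, the water channel, had the second largest fall with sulforaphane and the largest with FSH. It was measured at 19.63, 17.58 and 22.02 FPKM in controls, 4.33, 5.08 and 4.96 with sulforaphane, and 5.73, 6.98 and 4.40 with FSH. All 6 treated libraries were far below the controls and the treated groups overlapped, with falls of 3.90-fold and 3.36-fold. AQP1 lies on chromosome 18 from 42063482 to 42076741 (Sscrofa11.1). CLIC5, a chloride intracellular channel protein that binds the cortical actin linker ezrin, fell in the same way, from 6.27, 7.35 and 6.75 FPKM to 2.30, 1.79 and 1.95 with sulforaphane and 1.84, 2.61 and 1.84 with FSH. These are falls of 3.37-fold and 3.25-fold, and the 95% interval of the difference between treatments was -0.39 to 0.28 (log2). CLIC1 itself was at 575.22, 623.54 and 568.76 FPKM in controls, 451.40, 453.27 and 348.84 with sulforaphane, and 421.89, 418.96 and 435.63 with FSH, lower in all treated libraries.

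TMC8, which binds a zinc transporter in the endoplasmic reticulum, and SPNS2, the exporter of sphingosine 1-phosphate, fell with both. TMC8 went from 2.34, 2.94 and 3.10 FPKM to 1.02, 0.79 and 1.27 with sulforaphane and 1.92, 1.92 and 1.95 with FSH. The groups were separate, and TMC8 was lower with sulforaphane than with FSH (log2 -0.92 ± 0.181, adjusted p = 0.000645), while its fall with FSH (-0.48) was lost with TMM factors (-0.30) and without control replicate 3. SPNS2 stood at 1.57, 1.16 and 1.48 FPKM in controls, 0.47, 0.58 and 0.72 with sulforaphane, and 0.66, 0.63 and 0.81 with FSH, so that treated libraries lay below controls and overlapped each other. Its fall was built into its selection, since it passed the filter only through the controls. The span of SPNS2 overlaps MYBBP1A and that of TMC8 overlaps TMC6.

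Of the 7 potassium channel genes 3 were tested, of which 2 fell and 1 rose with each treatment, beside 65.3% lower and 34.3% higher among all rows with sulforaphane and 42.7% and 55.3% with FSH. KCNA5, a voltage-gated channel of repolarising currents in muscle, had the largest fall of the 41 transcripts. It was measured at 1.75, 1.79 and 1.49 FPKM in controls, 0.04, 0.00 and 0.02 with sulforaphane, and 0.74, 0.78 and 0.86 with FSH. The sulforaphane libraries together held 3 counts, against 279 in controls and 130 with FSH. Per unit of depth KCNA5 was 88.2-fold lower with sulforaphane than in controls, with a 95% interval of 29.9 to 430.0 (exact binomial, counting error only). It fell 2.11-fold with FSH. Only the control libraries reached 1 FPKM, so a fall against control was built into the selection of KCNA5. KCNA5 lies on chromosome 5 from 65439336 to 65442207 (Sscrofa11.1).

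KCNJ2, an inward rectifier that holds the resting potential, was at 8.01, 7.43 and 7.42 FPKM in controls, 4.49, 4.79 and 6.48 with sulforaphane, and 3.32, 2.31 and 2.73 with FSH (reads partly divided between loci). It was lowest with FSH, a fall of 2.93-fold, and 2.12-fold higher with sulforaphane than with FSH (adjusted p = 6.62e-05). Its log2 fold change with sulforaphane was -0.46, did not pass without sulforaphane replicate 1, was -0.70 without sulforaphane replicate 3, and was 0.00 with TMM factors. KCNA3, a voltage-gated channel best known from lymphocytes, was the only tested potassium channel of 3 that rose, from 0.60, 0.68 and 0.54 FPKM to 1.31, 1.47 and 1.3 with sulforaphane and 1.69, 1.49 and 1.40 with FSH. The rises were 2.23-fold and 2.50-fold, and the treated groups overlapped.

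The 4 untested potassium channel genes were near the limit of detection, and their values are given without a test. KCNJ5, a rectifier gated by G proteins, was listed at 0.22, 0.19 and 0.30 FPKM in controls, 0.11, 0.00 and 0.06 with sulforaphane, and 0.79, 1.63 and 1.03 with FSH, from 27, 6 and 128 counts in all. KCNE4, an auxiliary subunit, rested on 29, 7 and 78 counts in the same groups. Both were highest in all 3 FSH libraries. KCNS1, a silent modifier subunit, had 0.47 ± 0.118 FPKM in controls, 0.0567 ± 0.00577 with sulforaphane and 0.193 ± 0.0757 with FSH. KCNIP4, a calcium-binding channel partner, had 0.323 ± 0.0643, 0.103 ± 0.0404 and 0.143 ± 0.0513 FPKM. For KCNS1 and KCNIP4 the controls were highest.

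Of the cation channels described here, HCN4 and SCN3B fell with both treatments and ASIC1 rose with both. HCN4, the pacemaker channel that binds cyclic AMP directly, was at 2.07, 1.93 and 2.42 FPKM in controls, 1.33, 1.05 and 1.93 with sulforaphane, and 1.27, 1.05 and 0.98 with FSH. Sulforaphane replicate 3 reached the control range, and the fall of HCN4 with sulforaphane (-0.58 ± 0.194, adjusted p = 0.0121) was lost without control replicate 3. Its fall with FSH was 1.95-fold. SCN3B, an auxiliary sodium channel subunit, stood at 1.81 ± 0.137, 0.953 ± 0.143 and 1.2 ± 0.0945 FPKM. ASIC1, a sodium channel opened by protons, rose with both, from 0.41, 0.70 and 0.46 FPKM to 1.08, 0.90 and 1.78 with sulforaphane and 0.99, 1.04 and 1.22 with FSH (2.37-fold and 2.07-fold). The treated ASIC1 libraries overlapped, all above control.

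Smooth muscle markers had a lower sum in all treated libraries than in controls. The 17 transcripts that both treatments lowered therefore fell alongside them by selection, and the 17 that both raised rose in the same libraries. Of 8 listed smooth muscle markers 6 were in the table, all 6 passed as lower with sulforaphane, and 5 were lower and 1 higher with FSH. Their summed FPKM was 7384 to 7679 in controls, 2356 to 2576 with sulforaphane and 3121 to 3183 with FSH, and 0 of them were at 0 in any library. The other listed cell types had fewer markers in the table. The 3 surface epithelium keratins summed to 153.7 to 156.8 FPKM in controls, 39.39 to 46.45 with sulforaphane and 89.38 to 95.26 with FSH. Of 6 endothelial markers KDR alone was in the table, at 0.08 to 0.10 FPKM in controls, 0.87 to 1.67 with sulforaphane and 0.25 to 0.36 with FSH. The 3 stromal fibroblast markers summed to 85.42 to 91.63 FPKM in controls, 44.29 to 51.99 with sulforaphane and 56.94 to 60.64 with FSH. With sulforaphane 1 of them passed as higher and 2 as lower, and with FSH all 3 passed as lower. Of 8 listed theca markers only CYP11A1 and LHCGR were in the table, and both are on the luteal list too, so they mark neither type alone. They summed to 138.9 to 165.5 FPKM in controls, 74.86 to 137.5 with sulforaphane and 530.3 to 611.3 with FSH. With PTGFR added, the luteal list summed to 159.1 to 188.5, 84.73 to 154.5 and 564.4 to 655.4 FPKM. The 6 granulosa cell markers summed to 393.1 to 398.8, 576.2 to 716.1 and 778.6 to 812.2 FPKM. Of these 3 were higher and 3 lower with sulforaphane, and 5 higher and 1 lower with FSH, and GJA1 gave most of the sum. No row of the leukocyte, oocyte or erythroid lists was analysed here. The part of these markers in the rises and falls was not tested, and in bulk RNA fewer cells of a type and less RNA per cell cannot be told apart.

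TRPS1 rose from 0.78 ± 0.03 FPKM to 1.33 ± 0.11 with sulforaphane and 1.22 ± 0.0462 with FSH. KCTD11 went from 5.09 ± 0.585 to 8.07 ± 0.962 and 6.75 ± 0.235 FPKM, with reads partly divided between loci and a span that overlaps ACAP1, another row of the table. SLC2A4RG fell from 10.67, 11.11 and 11.57 FPKM to 7.05, 5.37 and 6.37 with sulforaphane and 8.08, 8.30 and 8.06 with FSH.

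The difference of sulforaphane from FSH was taken from the same fit, in which the controls entered the filter and the estimate of spread. Of the 41 transcripts 9 were higher with sulforaphane (12.9% of all rows), 11 were lower (42.8% of all rows), and 21 did not pass. A difference of at least 2-fold was seen in 9 of 41 (32.6% of all rows). The 7 transcripts with opposite directions against control all passed in this comparison, which that choice practically fixed. Of the 17 raised by both, 6 were higher with sulforaphane, namely SLC2A5, SLC23A2, SLC25A36, SLC25A32, SLC6A9 and SLC1A4, and SLC46A3 was lower. Of the 17 lowered by both, KCNJ2 was higher with sulforaphane, and KCNA5, SLC1A1, SLC2A4RG, SLC45A3 and TMC8 were lower. Scaled by median-ratio factors, 18 transcripts were higher and 9 lower (42.2% and 34.3% of all rows), against 14 and 9 by TMM factors (34.8% and 35.6% of all rows). The calls of SLC1A1 and SLC2A4RG were lost with both, and the other 18 kept their direction and call. The median of all rows moved from -0.18 to 0.19 and 0.12 with these factors. Calls gained as higher with sulforaphane under both were ABCA3, TRPS1, HCN4, KCTD11 and SLC35D1, and under median-ratio scaling also ASIC1, CLIC1, SLC16A1 and SLC2A13. Without sulforaphane replicate 3, SLC43A2 (-0.44), CLCN6 (-0.27), SCN3B (-0.45) and SLC2A13 (-0.28) passed as lower, and KCTD11 (0.34) and SLCO4A1 (0.49) as higher. AQP1 passed as lower without FSH replicate 3 (-0.30), SLC26A1 as lower without sulforaphane replicate 1 (-0.66), and HCN4 as higher without sulforaphane replicate 2 (0.57).

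**Figure D4:**
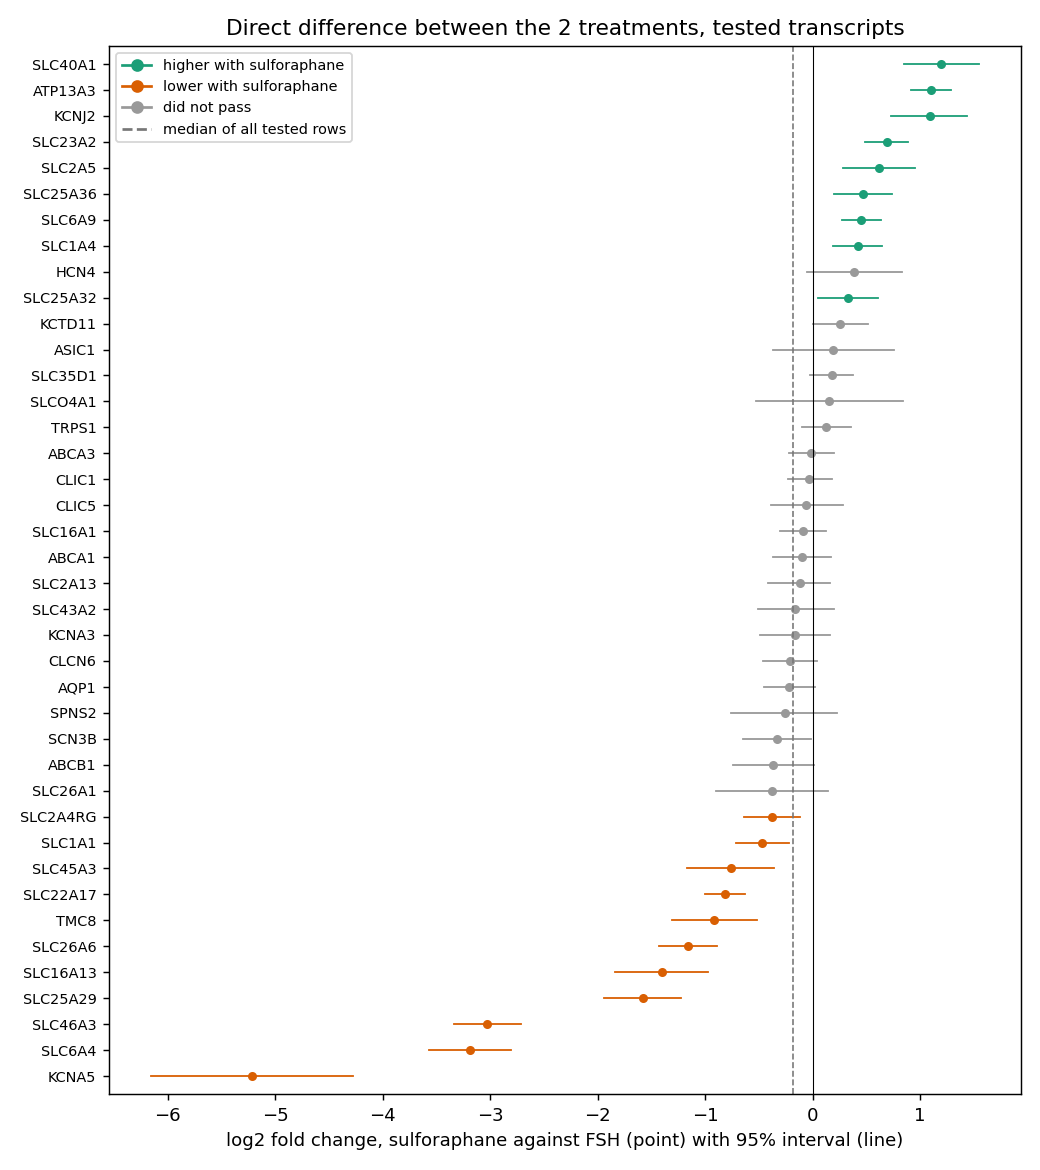
Log2 fold change of sulforaphane against FSH for the tested transcripts reported here, with 95% intervals, sorted by size. The dashed line is the median of all 919 rows (-0.18). SLC40A1, ATP13A3 and KCNJ2 are at least 2-fold higher with sulforaphane, and KCNA5, SLC6A4 and SLC46A3 are over 8-fold lower. The filter on low values took SLC46A3 only through FSH. The calls of SLC1A1 and SLC2A4RG end under median-ratio and TMM scaling.

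Pumps, channel subunits and regulators of transport outside the rule were taken from a list of 127 genes, of which 3 fell under the rule. Of the other 124, 13 were in the table and 8 were tested. With sulforaphane 3 of the 8 were higher and 5 lower (34.3% and 65.3% of all rows), with FSH 4 were higher and 4 lower (55.3% and 42.7%). GJA1, the gap junction protein connexin of granulosa cells, rose from 323 FPKM to 583 with sulforaphane and 613 with FSH. LRRC8D, a subunit of volume-regulated anion channels, and ATP7A, the copper pump, also rose with both. PLN, which restrains the calcium pump of the sarcoplasmic reticulum, CASQ2, the calcium store protein, TMEM37, a calcium channel gamma-like subunit, and GEM, a GTPase that inhibits calcium channels, fell with both. PLN and CASQ2 passed the filter on low values only through the controls, so a fall was built into their selection. PLN went from 1.97 to 0.897 FPKM in both treated groups and CASQ2 from 2.23 to 0.983 and 1.19 FPKM. RYR3, a calcium release channel, had 0.803 FPKM in controls, 0.597 with sulforaphane and 2.07 with FSH. It passed the filter only through FSH, so its difference from FSH was built into its selection as well.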

How the data were processed

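RNA from 9 libraries was compared in 3 groups of 3. Tools listed without role or order per the submitters' processing notes are HISAT2, StringTie 1.3.1, Bowtie2 2.2.8, fastp, edgeR and DESeq2, with the build Sscrofa11.1. Per the file headers, the authors deposited FPKM and read counts per gene. The deposited counts are estimated counts, since 143 of 1081 rows hold fractional values (5 of the 46 transcripts). No strand-specific step is stated, and 17 of the 46 spans overlap another annotated gene. Counts were rounded. Library sizes were recovered from count divided by FPKM (354 rows for relative depth, 10 rows at a common maximum for absolute depth). One edgeR 4.0.16 quasi-likelihood fit (R 4.3.3) used all 919 rows with at least 1 FPKM in at least 3 libraries, with Benjamini-Hochberg adjustment at 0.05 over all of them, and was tested on simulated counts. Standard errors were derived from the fold change and F (its size over the root of F). With 3 against 3, an exact permutation p cannot go below 0.1. Columns of no sample numbered 0.

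Library values are given for up to 8 rises and 8 falls per comparison, among transcripts that passed, did not overlap between groups and averaged 1 FPKM or more in either one, and for opposite directions. Of the transcripts counted, 1 is not reported here by name. Library values of other transcripts were added after being seen. The transcripts and lists were chosen with earlier results of these data known. Alternatives were TMM and median-ratio factors, DESeq2 1.42.0, limma 3.58.1 with pseudocounts of 1, 0.1 and 5, other filters, fewer groups, a replicate block, and each library left out. Same-numbered libraries did not deviate together (2 of 9 correlations over 0.1), so the numbers were not taken as pairs.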

Additional observations from a re-analysis of the deposited data

How the results depend on the processing

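The number of transcripts called was within 1.5 times the reported number under DESeq2, the 3 limma settings, no filter, fits of only the groups compared and the replicate block. With the block 19 were higher and 22 lower with sulforaphane, 22 and 19 with FSH, and 8 and 12 between treatments. With a mean of at least 5 FPKM, which left 18 transcripts tested, the numbers were 8 and 10, 9 and 9, and 7 and 5. TMM factors gave 14 lower with sulforaphane and 14 higher between treatments, and median-ratio factors gave 18 higher between treatments, and the cause was not tested. Leaving out 1 library gave 18 to 19 higher and 18 to 22 lower with sulforaphane, 20 to 22 and 14 to 19 with FSH, and 8 to 11 and 10 to 15 between treatments. Leaving out a control removes from the test transcripts that passed the filter through controls alone. With rows of whole counts only, added after seeing the data, the numbers were 17 and 19, 19 and 17, and 8 and 10. In the reported fit 99.6% and 97.9% of all rows passed against control and 55.7% between treatments. Shares over all rows under the block, the filters and left-out libraries are not given, so these counts describe stability alone.

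Against control, ABCA3 (0.01), KCNJ2 (0.00) and SLC22A17 (0.07) changed sign with TMM factors with sulforaphane. Between treatments, differences that had not passed changed sign with median-ratio factors for ABCA3 (0.36), CLCN6 (0.16), CLIC1 (0.36), SCN3B (0.04), SLC16A1 (0.30), SLC2A13 (0.25), SLC43A2 (0.20), ABCA1 (0.29), ABCB1 (0.02), AQP1 (0.16), CLIC5 (0.32), KCNA3 (0.21), SLC26A1 (0.01) and SPNS2 (0.11), and with TMM factors for ABCA3 (0.28), CLCN6 (0.09), CLIC1 (0.28), SLC16A1 (0.22), SLC2A13 (0.17), SLC43A2 (0.12), ABCA1 (0.21), AQP1 (0.09), CLIC5 (0.25), KCNA3 (0.14) and SPNS2 (0.03). Leaving out 1 library moved the log2 difference between treatments across 0 for transcripts with library values that had not passed, among them ABCA1 (-0.19 to 0.01), ASIC1 (-0.15 to 0.39), CLIC5 (-0.16 to 0.13) and SLCO4A1 (-0.08 to 0.49).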

Other observations

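Count and FPKM together imply a transcript length for each library. For 1 abundant carrier, SLC23A2, that length differed between groups without overlap of controls and sulforaphane: 7147, 7097 and 7141 nucleotides in controls, 6074, 6082 and 6352 with sulforaphane, and 5954, 6800 and 6575 with FSH. The ratio of the longest to the shortest group mean was 1.16, the highest of the 30 transcripts with at least 50 counts in every library, followed by 1.1 for KCNJ2 and 1.09 for SLC25A36, whose libraries overlapped between groups. For SLC40A1 it was 1.01.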
